A study of Mus musculus with 11 samples.

Results

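Lysosomal gene expression was examined through 36 genes that encode lysosomal hydrolases, lysosomal membrane proteins, the machinery that delivers enzymes to the lysosome and the membrane part of its proton pump. The genes were matched by symbol to the mouse Ensembl identifiers of the count tables, and 36 of 36 were found among the 53700 genes listed. All 36 were protein-coding and all 36 were among the 17626 genes tested. RNA came from the cerebral cortex of female mice, 8 months old and labelled as strain C57BL/6, with 1 library per animal. All 11 animals carried the 5xFAD transgenes, which are expressed in neurons under the Thy1 promoter and lead to amyloid deposits in the brain. The paper describes the transgenic line as partly of SJL background, which carries a variant of Trem2. It reports the mice kept for analysis as heterozygous for this variant. The strain label therefore does not show a uniform background. The part of strain background in the results was not tested. In the Abi3_WT group (n = 6) both copies of Abi3 were intact, and in the Abi3_KO group (n = 5) a null allele made in C57BL/6N mice removed the gene from all cells of the body. No animals without the 5xFAD transgenes and no other treatment entered the comparison, so that each difference below is between Abi3 genotypes within amyloid-bearing cortex.

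Lysosomes are acidic compartments in which proteins, lipids and sugar chains taken up from outside or delivered from within the cell are taken apart. Most of their enzymes receive a mannose 6-phosphate tag, are carried from the Golgi by 2 receptors that bind it, and work at the low pH set by the vacuolar ATPase (V-ATPase), a pump whose V0 sector crosses the membrane and whose V1 sector burns ATP. The transcription factor TFEB turns on many of these genes together through a short palindromic promoter sequence, the CLEAR element. In brains with amyloid, microglia around plaques hold many lysosomes and swollen neurites beside plaques fill with them, while inherited loss of single enzymes of the list causes storage diseases of brain and body.

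The libraries were sequenced with QuantSeq, which reads the 3′ end of each transcript. The Abi3_WT libraries held 3307854 to 5501958 reads in genes and the Abi3_KO libraries 3202310 to 3933819. Abi3 had 10 to 38 raw counts in Abi3_WT and 0 to 2 in Abi3_KO animals. Reads outside annotated genes amounted to 59.3 to 68.8 per 100 reads in genes in Abi3_WT and 49.8 to 62.5 in Abi3_KO libraries, and the part of this gap in the results was not tested beyond a fit that took it as a covariate. Markers of cortical cell types were present in all libraries, with no marker at 0 in any animal. The summed level of 11 microglia markers ranged from 1825 to 2520 normalized counts in Abi3_WT and from 2042 to 2767 in Abi3_KO animals. Of their log2 fold changes 9 of 11 were above 0 (median 0.18), and 0 passed the threshold. The largest were those of Aif1 (0.49) and C1qa (0.47, DESeq2 adjusted p of 0.0783), and Csf1r (-0.05) and Siglech (-0.02) lay below 0. The ranges of the summed astrocyte (8 genes), oligodendrocyte (8), cortical neuron (10) and endothelial and mural (8) markers also overlapped between genotypes. The oligodendrocyte markers had 8 of 8 log2 fold changes above 0 (median 0.21), and the 1 marker of any list past the threshold was among them, Cldn11 (0.53, DESeq2 adjusted p of 0.0106), a tight junction protein of myelin. Above 0 were also 2 of 8 astrocyte, 7 of 10 neuron and 3 of 8 endothelial and mural markers. The part of cell composition in the lysosomal values was not tested. In bulk tissue, fewer cells of a type and less RNA per cell cannot be told apart.

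No gene of the list passed the DESeq2 threshold of 0.05 on the p-value adjusted after Benjamini and Hochberg, against 95 of 17626 genes (0.539%) in the transcriptome. Of the 36 genes, 6 had an unadjusted p under 0.05. These were Glb1, Scarb2, Ids, Npc2 and Arsb, with a positive log2 fold change (5 of 36, against 4.14% of all genes tested), and Fuca1 with a negative one (1 of 36, against 4.44%). DESeq2 gives no adjusted p to genes with a mean count under a limit it sets itself, here 70.4 normalized counts, and 15 of the 36 genes, Glb1 among them, fell under it. Among the 21 that received one, 5 had an unadjusted p under 0.05, and the share among all 6487 such genes was 11.8%. The median log2 fold change of the 36 genes was -0.03 with 16 above 0, and that of all genes tested was -0.00334 with 49.5% above 0. edgeR, which called 0.21% of all genes, and limma, which called 20 of 17626, likewise called 0 of the 36. In 2 of the 36 genes, Glb1 and Arsb, the groups had no overlap, both higher in Abi3_KO (0.539% of all genes tested). With DESeq2's filtering switched off, so that every gene received an adjusted p, 1 of 36 passed, against 58 of 17626 genes (0.329%), and that gene was Glb1. P-values here set the genotype difference against counting error and the spread between animals. The tests estimate that spread partly from other genes.

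**Figure D1:**
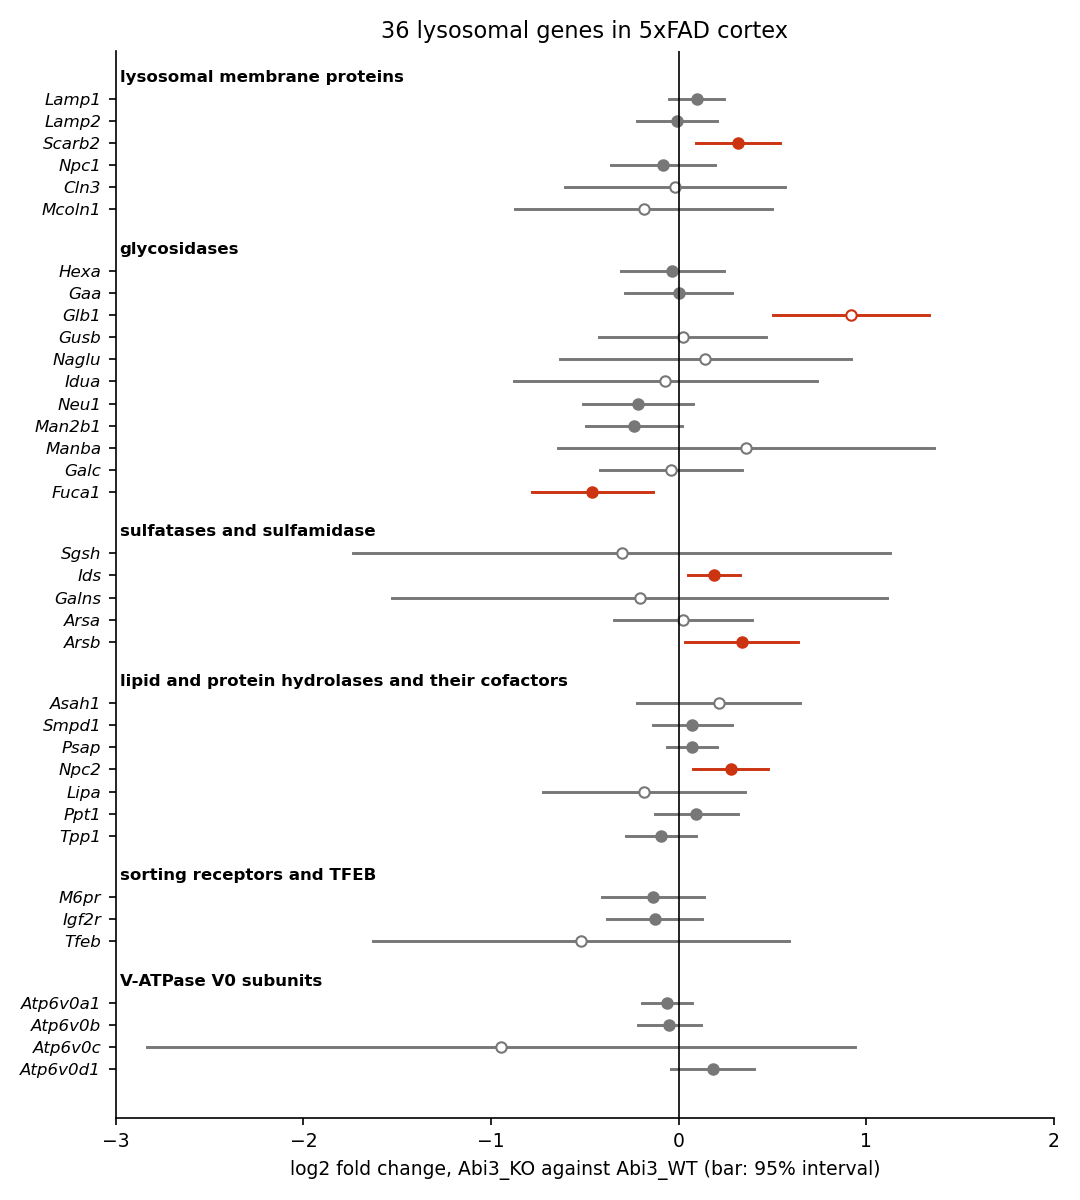
Log2 fold change of each of the 36 genes in Abi3_KO (n = 5) against Abi3_WT (n = 6) cortex with its 95% interval, by role. Red marks the 6 genes with an unadjusted DESeq2 p under 0.05, filled points the 21 genes with an adjusted p and open points the 15 without one; Glb1 lies farthest to the right at 0.92, and the widest interval, from -2.83 to 0.94, belongs to Atp6v0c.

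The lowest unadjusted p of the list belonged to Glb1. It encodes the lysosomal β-galactosidase, which takes the end galactose off GM1 ganglioside and keratan sulfate, and its loss causes GM1 gangliosidosis. Glb1 (ENSMUSG00000045594, chr9:114230144-114303966, plus strand, GRCm39) had a lowest, median and highest normalized count of 30.7, 32.5 and 38.8 in the 6 Abi3_WT animals. The 5 Abi3_KO animals had 64.0, 58.6, 69.2, 63.2 and 62.6. Every Abi3_KO animal lay above every Abi3_WT animal. The means were 33.8 ± 3.22 (SD, n = 6) and 63.5 ± 3.81 (SD, n = 5), which gave a log2 fold change of 0.92 (SE 0.213, 95% interval 0.50 to 1.33), or 1.89-fold, and an unadjusted DESeq2 p of 1.58e-05.

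The call on Glb1 depended on the filter and on the test. DESeq2 with its filter gave none, since the mean of Glb1 was 47.3 normalized counts, and with the filter off the adjusted p was 0.0121. The unadjusted p was 0.000185 with edgeR and 0.000217 with limma, which gave adjusted p-values of 0.0699 and 0.0871, and neither passed. In the 11 fits that left out 1 animal the log2 fold change stayed between 0.89 and 0.96 and the unadjusted p between 2.17e-05 and 0.000161. With reads outside genes as a covariate, the log2 fold change was 0.91, but its SE was 0.405. The unadjusted DESeq2 p was then 0.0248 and the adjusted p 1.00, in a fit that called 3 of all 17626 genes.

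The counts behind Glb1 were modest. Raw counts were 29 to 47 in Abi3_WT and 55 to 61 in Abi3_KO animals. The spread between animals was 9.53% of the mean in Abi3_WT and 6.00% in Abi3_KO, whereas counting error alone gives 16.5% and 13.2% at these depths. The animals of each genotype thus lay closer together than counting error alone gives, and the DESeq2 SE above rests also on the spread of other genes with like counts. No other place in GRCm39 matched the last 400 bases of the Glb1 transcript over 76 bases or more at 95% identity. Tmppe, a gene on the same strand that starts at the same base as Glb1, had 0 to 3 raw counts in Abi3_WT and 0 to 1 in Abi3_KO animals. Gm57032 on the same strand and Gm30254 on the opposite strand also overlap Glb1 in the annotation. Whether reads of these genes enter the Glb1 count was not tested.

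**Figure D2:**
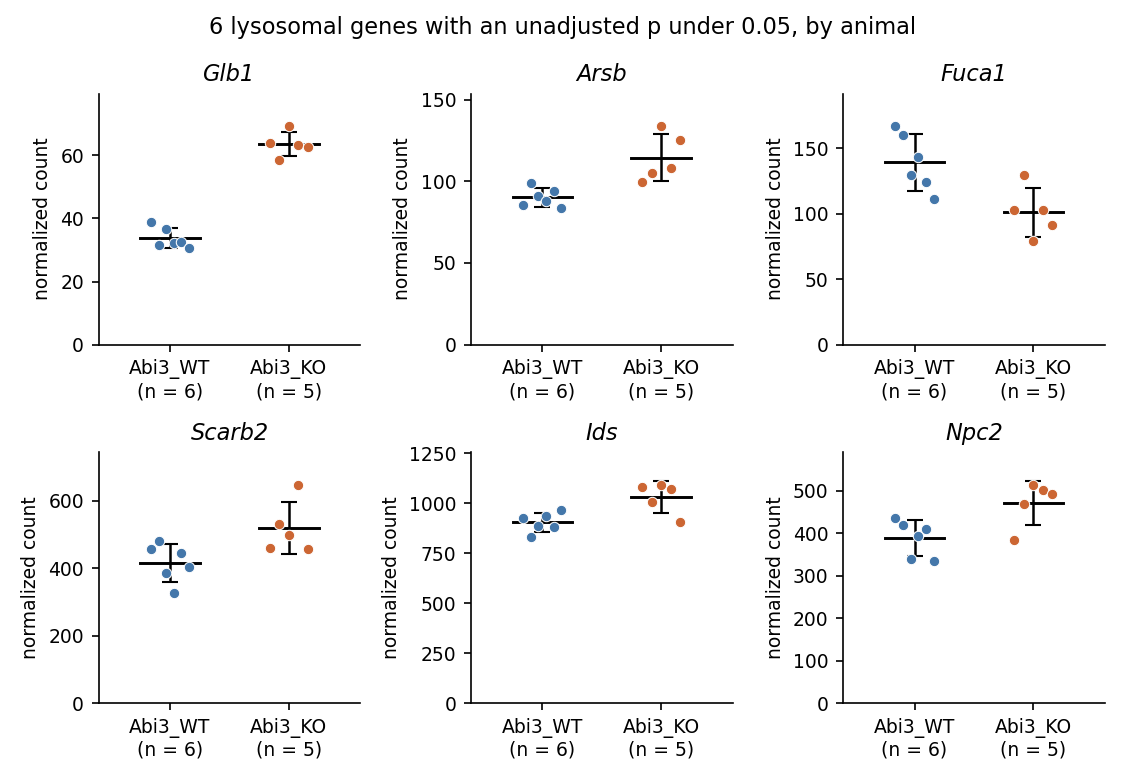
Normalized count per animal of the 6 genes with an unadjusted p under 0.05, on axes that start at 0; each point is 1 animal, the horizontal line the mean and the bar the SD. The genotypes do not overlap for Glb1 (30.7 to 38.8 against 58.6 to 69.2) and Arsb (83.6 to 99.0 against 99.6 to 133.7), and they overlap for the other 4 genes.

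Of 18 other genes tested within 1 Mb, 12 had a mean of at least 10 normalized counts, and their log2 fold changes ranged from -0.26 for Osbpl10 to 0.23 for Dync1li1, with 5 above 0. Only Dync1li1, a subunit of the dynein motor, had an unadjusted p under 0.05 among these 12 (0.0405, DESeq2 adjusted p of 0.376). Of the 6 genes with fewer counts, 3 had an unadjusted DESeq2 p under 0.05 and lay farther from 0 than Glb1, on the other side. Named after their values were seen, these were AU023762 (-2.003), 4930520O04Rik (-2.30) and Trim71 (-2.23), with means of 5.70, 6.27 and 2.67 normalized counts and unadjusted p-values of 0.0194, 0.00984 and 0.0421. The genotypes overlapped in all 18 genes.

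**Figure D3:**
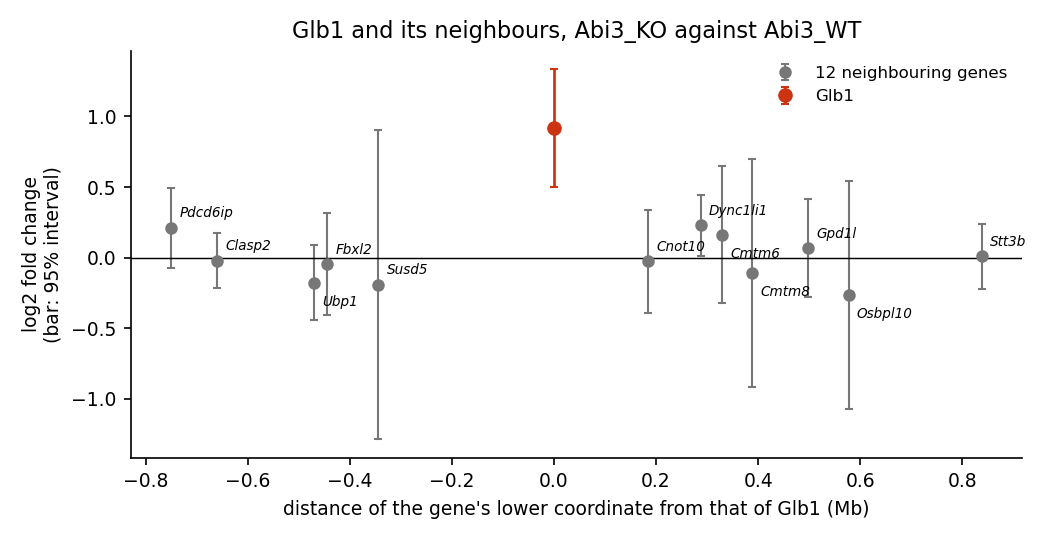
Log2 fold change with its 95% interval for Glb1 (red) and for the 12 genes within 1 Mb of it with a mean of at least 10 normalized counts (grey), by distance in Mb. Glb1 stands at 0.92 and these neighbours between -0.26 and 0.23.

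Promoters of the list were searched for the CLEAR core, TCACGTGA, and for the E-box inside it, CACGTG. Both letter strings read the same on both strands, and each TCACGTGA also counts as an E-box. The window ran from 250 bases before to 50 bases after the start of each gene's canonical transcript in GRCm39. TCACGTGA was found in 3 of 36 promoters (8.33%) and in 216 of the 14075 protein-coding genes tested (1.53%). CACGTG was found in 10 of 36 (27.8%) and in 1353 of 14075 (9.61%). The 10 were Lamp1, Cln3, Mcoln1, Gaa, Glb1, Naglu, Sgsh, Arsa, Igf2r and Atp6v0b. Of the 6 genes with an unadjusted p under 0.05, Glb1 alone was among them. A match of letters does not show that a factor binds there.

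The matches are shown for the genes with the full 8-letter core and for the single E-box of Glb1, as 30-base windows read 5′ to 3′ on the strand of the gene with the motif in capitals. Cln3 is shown at chr7:126182512-126182541 (minus strand, motif from 111 bases before the start), Mcoln1 at chr8:3550462-3550491 (plus strand, from 21 bases after the start), and Igf2r at chr17:12988624-12988653 (minus strand, from 28 bases before) and chr17:12988583-12988612 (minus strand, from 13 bases after). Glb1 is shown at chr9:114230086-114230115 (plus strand, from 46 bases before the start).
Cln3: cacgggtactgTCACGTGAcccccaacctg
Mcoln1: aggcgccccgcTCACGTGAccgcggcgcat
Igf2r, upstream: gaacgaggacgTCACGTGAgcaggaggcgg
Igf2r, downstream: gccgactcaggTCACGTGAcgctccgggga
Glb1: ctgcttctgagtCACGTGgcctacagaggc

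None of the genes that carry the full core had an unadjusted p under 0.05. Their log2 fold changes were -0.02 for Cln3, -0.19 for Mcoln1 and -0.13 for Igf2r, with unadjusted DESeq2 p-values of 0.951, 0.596 and 0.326. Tfeb itself (chr17:48047837-48103348, plus strand) was counted at low depth, with a lowest, median and highest normalized count of 1.05, 14.1 and 22.2 in Abi3_WT animals. Abi3_KO values were 11.5, 11.1, 13.1, 9.04 and 2.28, all inside the Abi3_WT range. Its log2 fold change of -0.52 (SE 0.566) had a 95% interval from -1.63 to 0.59, which holds both a large fall and a rise.

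Both sorting receptors had a lower mean in Abi3_KO, and neither had an unadjusted p under 0.05. M6pr, the cation-dependent mannose 6-phosphate receptor (chr6:122285616-122294639, plus strand), had 138.3, 167.4 and 185.4 normalized counts as the lowest, median and highest Abi3_WT values. In the Abi3_KO group the values were 123.7, 150.5, 139.7, 186.3 and 147.9, with the groups overlapping. Igf2r, the larger receptor that also takes up IGF2 from outside the cell (chr17:12901293-12988614, minus strand), had 147.2, 160.9 and 173.5 as its lowest, median and highest Abi3_WT values. The 5 Abi3_KO values were 168.8, 149.5, 138.5, 150.2 and 124.0, of which 2 lay under the Abi3_WT range. The log2 fold changes were -0.14 (95% interval -0.41 to 0.14) for M6pr and -0.13 (-0.38 to 0.13) for Igf2r. With the covariate for reads outside genes the value of M6pr turned to 0.06 and that of Tfeb to 0.83, both with an adjusted p of 1.00.

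Among the membrane proteins, Scarb2 was the one with an unadjusted p under 0.05. It encodes LIMP-2, which escorts β-glucocerebrosidase to the lysosome. Scarb2 (chr5:92589169-92654692, minus strand) had 325.4, 423.5 and 479.1 normalized counts as the lowest, median and highest Abi3_WT values. The Abi3_KO animals had 459.3, 532.3, 497.8, 647.1 and 457.5, of which 3 were above all Abi3_WT animals. The log2 fold change was 0.32 (SE 0.114) with a DESeq2 adjusted p of 0.148, and it passed in 1 of 11 fits without 1 animal, the one without Abi3_WT replicate 2. With reads outside genes as a covariate, the log2 fold change of Scarb2 was 0.54 (SE 0.202), and it did not pass.

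The other membrane proteins overlapped between the genotypes. Lamp1 and Lamp2, the most widely used lysosomal surface markers, averaged 888.1 ± 73.8 and 267.9 ± 27.2 normalized counts in the Abi3_WT group (SD, n = 6) and 948.6 ± 61.4 and 267.2 ± 23.8 in the Abi3_KO group (SD, n = 5). Their log2 fold changes were 0.10 (95% interval -0.05 to 0.24) and -0.01 (-0.22 to 0.21), so that a change by more than 0.24 in either direction lay outside both intervals. Npc1, which moves cholesterol out of the lysosome, had a log2 fold change of -0.08 (-0.36 to 0.20). For Cln3, a membrane protein lost in juvenile Batten disease, and Mcoln1, a calcium release channel, the intervals reached from -0.61 to 0.57 and from -0.87 to 0.50. Their means in Abi3_WT were 37.3 and 27.6 normalized counts, and their animals there spread by 28.6% and 44.2% of the mean, against 15.7% and 18.2% from counting error alone.

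The 11 glycosidases, which take sugars off glycoproteins, glycolipids and glycosaminoglycans one at a time, went in both directions. Besides Glb1, 1 had an unadjusted p under 0.05, Fuca1, the α-L-fucosidase (chr4:135648004-135668235, plus strand). Its lowest, median and highest Abi3_WT values were 111.1, 136.4 and 166.7 normalized counts. Abi3_KO values were 102.8, 129.3, 78.8, 102.8 and 91.0, and 4 of the 5 lay under all Abi3_WT animals. The log2 fold change was -0.46 (SE 0.165) and the DESeq2 adjusted p 0.152. The last 400 bases of the Fuca1 transcript matched 16 other places at 95% identity or more, up to 241 bases long, and reads that align to several places were not counted, so its level is uncertain.

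The remaining 9 glycosidases had log2 fold changes from -0.24 for Man2b1, a lysosomal α-mannosidase, to 0.36 for Manba, the β-mannosidase. Man2b1 averaged 186.6 ± 19.2 normalized counts in the Abi3_WT group (SD, n = 6) and 157.4 ± 18.8 in the Abi3_KO group (SD, n = 5), with an unadjusted DESeq2 p of 0.0683. Neu1, the sialidase, had 160.5 ± 28.1 and 137.9 ± 15.7, and its interval ran from -0.51 to 0.08. The last 400 bases of its transcript matched 5 other places, the longest over 104 bases at 95.2% identity, so its count is uncertain. Hexa, which encodes the α chain of β-hexosaminidase, and Gaa, the acid α-glucosidase, had log2 fold changes of -0.03 (95% interval -0.31 to 0.24) and 0.000121 (-0.29 to 0.29). Galc, which degrades the myelin lipid galactosylceramide, had -0.04 (-0.42 to 0.34), and Gusb, the β-glucuronidase, 0.02 (-0.42 to 0.47). Naglu and Idua, which act on heparan sulfate, and Manba had means of 22.1, 20.5 and 10.4 normalized counts in Abi3_WT and intervals at least as wide as -0.63 to 0.92.

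Of the 4 sulfatases and the sulfamidase, which strip sulfate from sugar chains and lipids, Arsb and Ids had an unadjusted p under 0.05 and a higher mean in Abi3_KO. Arsb (chr13:93907903-94079528, plus strand) takes sulfate off dermatan and chondroitin sulfate. Its lowest, median and highest Abi3_WT values were 83.6, 89.4 and 99.0 normalized counts, and the Abi3_KO animals had 99.6, 105.0, 133.7, 108.4 and 125.2. The groups did not overlap, but the highest Abi3_WT and lowest Abi3_KO animals were less than 1 count apart. Its log2 fold change was 0.34 (SE 0.154), with a DESeq2 adjusted p of 0.341.

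Ids, the iduronate-2-sulfatase lost in Hunter syndrome (chrX:69386675-69408718, minus strand), had a smaller difference at a greater depth. Its lowest, median and highest Abi3_WT values were 831.1, 907.0 and 965.9 normalized counts. In the Abi3_KO group the values were 1080, 1004, 1092, 1073 and 903.6, so that 4 of 5 were above all Abi3_WT animals and replicate 5 was below their median. The log2 fold change was 0.19 (SE 0.0706) and the DESeq2 adjusted p 0.178, and it passed in 1 of 11 fits without 1 animal, the one without Abi3_KO replicate 5. With reads outside genes as a covariate, the log2 fold change of Ids was 0.32 (SE 0.126), and it did not pass. The last 400 bases of its transcript matched 1 other place over 76 bases at 98.7% identity, so this count is uncertain too. Arsa, the arylsulfatase of myelin sulfatide, had 66.9 ± 8.73 (SD, n = 6) and 68.1 ± 6.81 (SD, n = 5), with an interval from -0.34 to 0.39. Sgsh and Galns had 0 to 19 raw counts, and their intervals were too wide to show a change by less than 1 on the log2 scale.

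The lipid and protein hydrolases and their helpers had 5 of 7 log2 fold changes above 0. Npc2, the soluble protein that hands cholesterol to NPC1 (chr12:84801334-84820617, minus strand), was the one with an unadjusted p under 0.05. Its lowest, median and highest Abi3_WT values were 334.3, 401.8 and 437.2 normalized counts. The 5 Abi3_KO values were 384.9, 468.7, 514.5, 501.4 and 492.8, and 4 of 5 were above all Abi3_WT animals. The log2 fold change was 0.28 (SE 0.102) with a DESeq2 adjusted p of 0.169. Its partner Npc1 had a log2 fold change of the other sign, as given above, and the difference between both was not tested.

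Psap, the precursor of the saposins that present sphingolipids to their enzymes, averaged 2150 ± 185.9 normalized counts in the Abi3_WT group (SD, n = 6) and 2259 ± 136.6 in the Abi3_KO group (SD, n = 5), a log2 fold change of 0.07 (95% interval -0.06 to 0.20). The last 400 bases matched 1 other place over 219 bases at 100% identity, so its count is uncertain. Smpd1, the acid sphingomyelinase, had 0.07 (-0.14 to 0.28), Ppt1, a palmitoyl thioesterase, 0.09 (-0.13 to 0.31), and Tpp1, a peptidase that trims proteins from their front end, -0.09 (-0.28 to 0.09). Asah1, the acid ceramidase, and Lipa, the acid lipase, had 0.21 (-0.22 to 0.65) and -0.18 (-0.72 to 0.35).

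The 4 V0 subunits of the V-ATPase had log2 fold changes of -0.06 for Atp6v0a1 (95% interval -0.19 to 0.07), -0.05 for Atp6v0b (-0.22 to 0.12), 0.18 for Atp6v0d1 (-0.04 to 0.40) and -0.95 for Atp6v0c (-2.83 to 0.94). Atp6v0a1, a subunit of the proton path, averaged 1097 ± 65.9 normalized counts in the Abi3_WT group (SD, n = 6) and 1051 ± 67.1 in the Abi3_KO group (SD, n = 5). Atp6v0c encodes the proteolipid that forms the rotor ring and was counted at 0 to 13 reads in Abi3_WT and 0 to 5 in Abi3_KO animals. The last 400 bases of its transcript matched 2 other places in GRCm39, the longer over 402 aligned bases at 97.0% identity, and reads that fit both places are not counted, so that this count says little of its level. In the V1 sector, 9 of 10 subunits tested had a positive log2 fold change and 2 passed the threshold. Of all genes tested, 49.5% were positive (56.1% of those with an adjusted p). The threshold was passed by 0.539% of all genes tested, and by 95 of the 6487 with an adjusted p. The median was 0.23 for V1 and -0.06 for V0. The difference between the sectors was not tested.

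The level of the whole list was described by a score for each animal. Each of the 33 genes with a mean of at least 10 normalized counts was put on the log2 scale (pseudocount 1) and z-scored across animals, and the z-scores of an animal were averaged. The Abi3_WT animals ranged from -0.33 to 0.46 with a median of -0.09. The Abi3_KO animals had -0.11, 0.29, 0.19, 0.18 and -0.25, all inside the Abi3_WT range. The mean score was -0.05 ± 0.278 (SD, n = 6) and 0.06 ± 0.229 (SD, n = 5), a difference of 0.11, which is less than either SD. Without Glb1 the difference was 0.05, and with each animal left out in turn the difference over the 33 genes was 0.04 to 0.21. Summed over the 36 genes, the level was 10222 ± 445.6 normalized counts in the Abi3_WT group (SD, n = 6) and 10585 ± 358.5 in the Abi3_KO group (SD, n = 5). No test was run on these values, since the genes were chosen with results known.

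**Figure D4:**
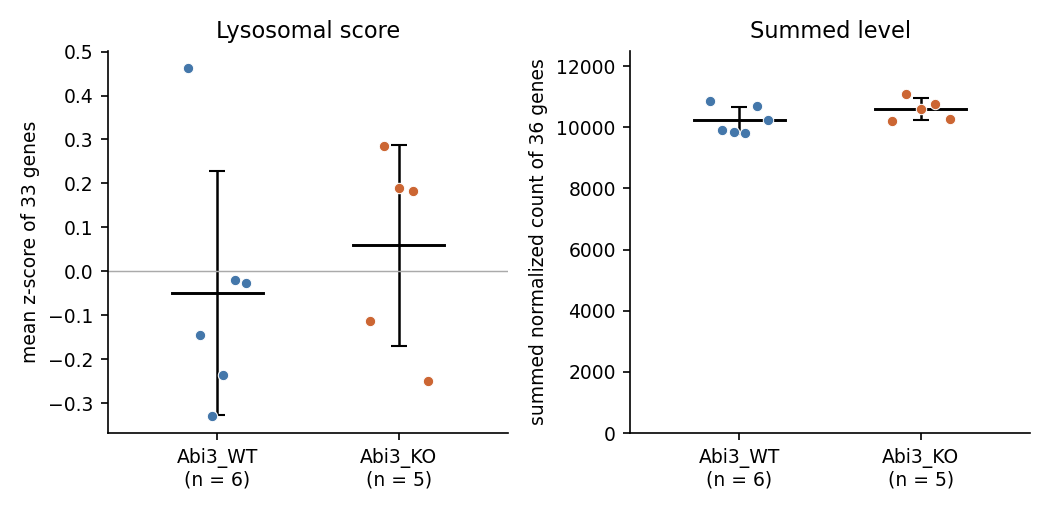
Lysosomal score (left, mean z-score of 33 genes) and summed normalized count of the 36 genes (right, axis from 0) per animal; each point is 1 animal, the horizontal line the mean and the bar the SD. The Abi3_KO scores, from -0.25 to 0.29, lie within the Abi3_WT range of -0.33 to 0.46.

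Within the list, scores were also taken for the groups by role, and differences between these groups were not tested. The 3 sulfatases with enough counts, Ids, Arsa and Arsb, scored -0.47 ± 0.346 in the Abi3_WT group (SD, n = 6) and 0.57 ± 0.534 in the Abi3_KO group (SD, n = 5). Ids and Arsb were already named for an unadjusted p under 0.05, so this score repeats their values. Sgsh and Galns, with log2 fold changes of -0.30 and -0.21, had too few counts to enter it. The sorting receptors with Tfeb went the other way from the sulfatases, at 0.30 ± 0.480 and -0.36 ± 0.641. The membrane proteins scored -0.11 ± 0.216 and 0.13 ± 0.475, and the lipid and protein hydrolases with their cofactors -0.15 ± 0.499 and 0.18 ± 0.371. The glycosidases, at 0.05 ± 0.368 and -0.07 ± 0.181, and the V0 subunits, at 0.00365 ± 0.250 and -0.00438 ± 0.745, differed by less than their SD. These groups hold 3 to 11 genes each, and the ranges of the genotypes overlapped in each group.

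Chromosome 11, which carries Abi3 at chr11:95720900-95733302, holds 4 genes of the list. Atp6v0a1 and Naglu lie 5.15 and 5.23 Mb from Abi3, and Gaa and Sgsh 23.4 and 23.5 Mb. Their log2 fold changes were -0.06, 0.14, 0.000121 and -0.30, with unadjusted DESeq2 p-values from 0.37 to 0.999. Glb1 and the other 5 genes with an unadjusted p under 0.05 lie on other chromosomes.

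Other genes of the lysosome were taken from 3 further lists. Of the 34 other hydrolases and cofactors tested, 1 passed the threshold, against 0.539% of all genes and 95 of the 6487 with an adjusted p. An unadjusted p under 0.05 was found for 4, all with a positive log2 fold change, against 4.14% of all genes in this direction. In either direction the share was 11.8% among genes with an adjusted p, which 21 of the 34 had. The gene that passed was Ctss, which encodes cathepsin S, a protease of microglia. Its lowest, median and highest Abi3_WT values were 831.5, 968.8 and 1309 normalized counts, and the Abi3_KO animals had 1118, 1380, 1288, 1585 and 1350. Ctss rose by 0.44 on the log2 scale (SE 0.106) with a DESeq2 adjusted p of 0.00758, while 2 of the 5 Abi3_KO animals lay within the Abi3_WT range. It passed in 11 of 11 fits without 1 animal.

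Of the 15 other V-ATPase subunits and accessory proteins tested, 3 passed, against 0.539% of all genes and 95 of the 6487 with an adjusted p. Before adjustment 8 had a p under 0.05, all higher in Abi3_KO, against 4.14% of all genes in this direction and 11.8% in either direction among genes with an adjusted p, which 14 of the 15 had. Atp6v1a, the catalytic subunit of V1, rose from a mean of 1435 ± 157.7 normalized counts (SD, n = 6) to 1958 ± 299.4 (SD, n = 5), with a DESeq2 adjusted p of 0.00159. Atp6ap2, an accessory protein of the pump, rose from 597.9 ± 25.6 to 733.2 ± 52.6 without overlap between genotypes, with a DESeq2 adjusted p of 0.0136. Atp6v1g2, a V1 stalk subunit of neurons, rose from 592.1 ± 93.1 to 751.4 ± 34.3, with a DESeq2 adjusted p of 0.0454, and passed in 2 of 11 fits without 1 animal. Atp6v1a passed in 11 of these fits and Atp6ap2 in 9. Atp6v1a also passed with edgeR (adjusted p of 0.0113) and limma (0.0125). Atp6ap2 did not pass with edgeR (0.236), limma (0.165) or the replicate block in DESeq2 (0.13), and Atp6v1g2 failed in these (0.205, 0.15 and 0.133), with TMM factors (0.0604) and with filtering off (0.1).

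Of the 43 other membrane, transport and signalling proteins tested, 0 passed in DESeq2 and 6 had an unadjusted p under 0.05, all 6 higher in Abi3_KO, against 4.14% of all genes in this direction and 11.8% in either direction among genes with an adjusted p, which 28 of the 43 had. edgeR and limma, which called 37 and 20 of all 17626 genes, also called 0 of the 43. The lowest p-values belonged to Laptm4a, Laptm5 and Tmem106b, with log2 fold changes of 0.28 for the first, 0.44 for the second and 0.25 for the third, and with adjusted p-values from DESeq2 of 0.099, 0.106 and 0.107 in that order. Laptm5 is a lysosomal membrane protein of blood-derived and microglial cells, and Tmem106b a regulator of lysosome size. The median log2 fold change of these 3 lists was 0.13 for the hydrolases, 0.22 for the V-ATPase genes and 0.08 for the membrane proteins, and 65 of 92 genes were above 0, against 49.5% of all genes tested and 56.1% of those with an adjusted p. With reads outside genes as a covariate, 0 of the 92 genes passed. The log2 fold changes were then 0.74 for Ctss, 0.26 for Atp6v1a, 0.33 for Atp6v1g2 and 0.25 for Atp6ap2, and their SEs grew from 0.106, 0.0947, 0.0982 and 0.0739 to 0.177, 0.167, 0.183 and 0.139.

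**Figure D5:**
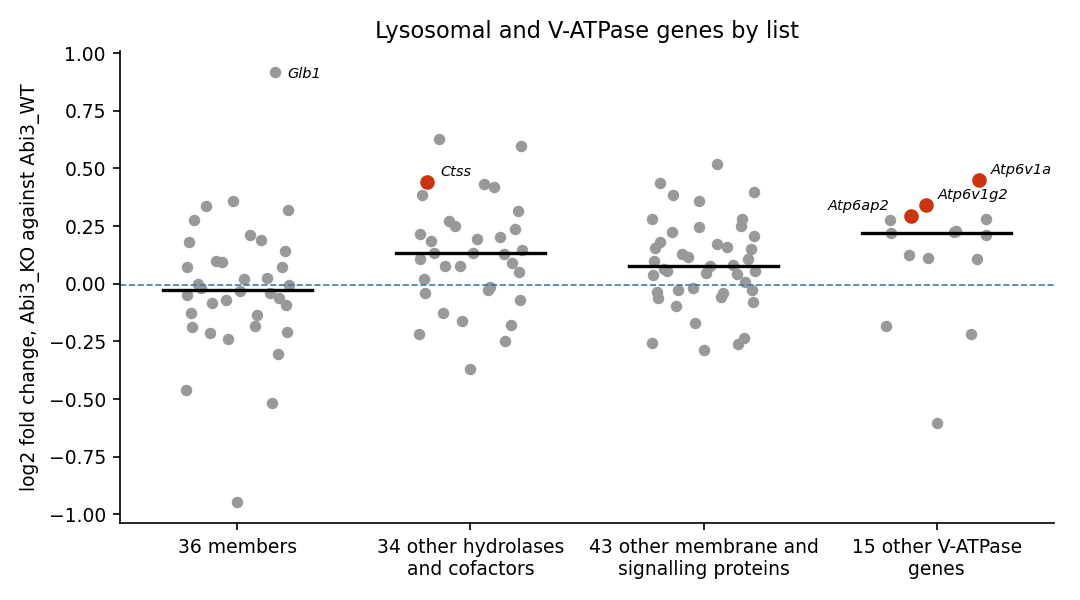
Log2 fold change of each gene in the list of 36 and in the 3 lists of other lysosomal and V-ATPase genes; black lines are medians, the dashed line is the median of all 17626 genes tested, and red marks genes past the threshold. The median is -0.03 for the 36 genes and 0.13, 0.08 and 0.22 for the other lists, and the 4 genes past the threshold lie outside the list of 36.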

How the data were processed

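Raw read counts per gene, deposited by the authors for each of the 11 cortices, were analysed. The authors trimmed single-end QuantSeq reads, aligned them with STAR (version 2.7.3a) to GRCm39 and counted uniquely aligned reads on the sense strand with HTSeq (version 0.9.1), per the study's methods and the submitters' processing notes; no removal of PCR copies is stated. The 5 tallies of reads given to no gene (79.4% to 82.3% of listed reads or alignments) were left out of library sizes. Names and positions came from GENCODE vM39, which matched 52610 of 53700 identifiers (98.0%).

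DESeq2 (version 1.42.0, R version 4.3.3) was fitted across all genes with genotype as the only term. A gene needed 10 counts over all libraries to be fitted and a mean of 1.5 normalized counts to be reported, and the threshold on the adjusted p (Benjamini and Hochberg) was 0.05. Log2 fold changes are Abi3_KO against Abi3_WT, normalized counts are counts divided by DESeq2 size factors, and 95% intervals are the estimate ± 1.96 SE. A total of 3 counts, taken as the least that can be told from none, was 0.545 to 0.937 CPM, which covers counting error only. Counts near the 3′ end were not compared between genes. Sequence copies were searched with BLAST (version 2.17.0).

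Values per animal are given for genes of the list with an unadjusted p under 0.05 or without overlap between genotypes and for Tfeb, M6pr and Igf2r, and the rest are given by mean and interval. From the other lists, genes past the threshold, or otherwise the 3 with the lowest p, were named. The genes and lists were chosen with earlier results of these data known. Alternatives were edgeR (version 4.0.16), limma (version 3.58.1), TMM factors, no filter or a stricter one on low counts, independent filtering off, a replicate block, a covariate for reads outside genes and leaving out each animal. For the other named genes and Abi3, the alternatives were chosen after seeing the data. The fits were tested on simulated counts.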

Additional observations from a re-analysis of the deposited data

Results flagged for a closer look

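In 3 of 72 groups of values examined (36 genes in both genotypes), a single animal stood apart from the rest of its group; chance flags about 1 in 20 groups, or 3.6 here. Abi3_KO replicate 2 had 1056 normalized counts of Lamp1, against 931.1 in the nearest Abi3_KO animal and a group median of 928.4. The same animal had 308.1 normalized counts of Lamp2, against 263.8 in the nearest and a median of 262.2. Abi3_KO replicate 3 had 16.7 normalized counts of Galns, against 6.06 in the nearest and a median of 5.69, a gene with 3 to 14 raw counts in this group.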

How the results depend on the processing

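The number of the 36 genes past the threshold was 0 and became 1 (Glb1) with independent filtering off. It was 0 to 1 when 1 animal was left out. The 1 was Glb1 without Abi3_WT replicate 5 or 6, Scarb2 without Abi3_WT replicate 2 and Ids without Abi3_KO replicate 5. Glb1 received an adjusted p in only 2 of these 11 fits and passed in both. It stayed at 0 in the other 7 alternatives. The 4 other lysosomal and V-ATPase genes stayed 4 with no filter on low counts and became 3 with TMM factors, the stricter filter and independent filtering off, 2 with edgeR, limma and the replicate block, and 0 with reads outside genes as a covariate, where Ctss was at 0.74 on the log2 scale. They were 2 to 6 without 1 animal, with 2 without Abi3_WT replicate 6 or Abi3_KO replicate 2. The score difference of 0.11 was 0.08 with TMM factors, 0.07 without a filter on the mean, 0.08 on genes with a mean of at least 100, 0.11 with the replicate block and 0.04 to 0.21 without 1 animal. It was 0.03 on the log2 scale without z-scores.

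Same-numbered animals were different animals and did not deviate together (correlations -0.00485 to 0.0656 over 5 pairs), so the numbers were not taken to pair them.

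Of 180 log2 fold changes of the 36 genes under 5 alternatives (edgeR, limma, TMM factors, the replicate block and the covariate), 15 changed sign, in genes without an unadjusted p under 0.05. With the covariate these were Npc1 (0.19), Mcoln1 (0.36), Gaa (-0.10), Galc (0.35), M6pr (0.0601), Tfeb (0.83), Atp6v0c (0.13) and Atp6v0d1 (-0.0551). With the replicate block they were Mcoln1 (0.084), Naglu (-0.0655) and Galns (0.39). With limma they were Gusb (-0.00641) and Galns (0.0411), and Gaa was -0.00313 with edgeR and -0.00651 with TMM factors. Without 1 animal, 13 genes changed sign in 39 of 396 fits, within -0.0638 to 0.0465 (Lamp2), -0.22 to 0.0127 (Npc1), -0.21 to 0.13 (Cln3), -0.0843 to 0.0435 (Hexa), -0.098 to 0.085 (Gaa), -0.12 to 0.14 (Gusb), -0.32 to 0.31 (Naglu), -0.43 to 0.080 (Idua), -0.12 to 0.0349 (Galc), -0.78 to 0.0672 (Sgsh), -0.74 to 0.23 (Galns), -0.0107 to 0.0853 (Arsa) and -0.11 to 0.00599 (Atp6v0b). The causes were not tested. DESeq2 gave no adjusted p to the 15 genes with a mean under 70.4 normalized counts.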
